A study of Caenorhabditis elegans with 3 samples.

Results

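The clec genes of Caenorhabditis elegans encode proteins with a C-type lectin-like domain, and their transcript levels were compared between oocyte-making and sperm-making animals. The family was taken by name, as every gene whose symbol on the array's platform, or whose current RefSeq symbol, is clec followed by a number. This gave 203 genes on 218 rows, out of 14957 named genes on the array, and 200 of the 203 had a value on all 3 arrays. RefSeq lists 264 clec genes in assembly WBcel235, and the other members were not analysed here. Of the 203 genes, 186 are listed there as protein coding and 17 as pseudogenes.

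In fem-1(lf) animals the sex determination gene fem-1 has lost its function, and XX animals then make oocytes but no sperm. In fem-3(gf) animals its partner gene fem-3 is overactive, and XX animals make sperm but no oocytes. RNA of both genotypes was hybridised together on 3 arrays of 2 colours, each with 1 prep of either genotype, numbered prep 1 to prep 3. Each value is the log2 ratio of an array's channels, so a value of 1 is a 2-fold difference. Nothing in the labels ties the preps to separate cultures, so p-values measure only the spread between arrays, which may be technical. The sources used here give neither the animals' age nor their growth temperature.

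The C-type lectin-like domain is a compact fold held by disulfide bonds, and in its classical form it binds sugars with the help of calcium. In vertebrates, proteins with this domain include selectins, which slow white blood cells on vessel walls, and collectins, which bind microbial surfaces. In nematodes the family is greatly expanded, most members are predicted to be secreted or membrane-bound, and a number of them are made in the intestine and change with bacterial infection. Most members have no assigned role, so each is described below by its levels, with a role only where one is known.

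The labels name fem-1(lf) first and place it in the second channel, and name no dye, so it is likely rather than settled that a ratio above 0 stands for more RNA in fem-1(lf) animals. Sperm genes and most oocyte and eggshell genes went with that reading. Of the mutated genes, fem-1 was near 0 and fem-3 lay above 0, and neither decides the direction. The oocyte maturation gene oma-1 was at 2.24, 1.81 and 2.25 on the arrays of preps 1, 2 and 3, and the eggshell scaffold gene cbd-1 at 3.58, 2.47 and 2.54. The sperm gene spe-9, whose product is needed at fertilisation, was at -2.81, -2.31 and -2.63, and the sperm ferlin gene fer-1 at -3.28, -3.40 and -3.08. All 13 measured sperm genes passed the limma test on the fem-3(gf) side, with a median of -5.39 (adjusted p under 0.05 over all features). Among 18 oocyte and eggshell genes 16 passed it on the fem-1(lf) side, with a list median of 2.67. The rest went the other way: perm-2 was at -0.43, -0.44 and -0.87 and passed on the fem-3(gf) side. The values of perm-4 were -0.47, -0.40 and -0.23, and it did not pass. The gene fem-3, overactive in fem-3(gf), was at 2.18, 1.62 and 1.47, which on this reading is more RNA in fem-1(lf), with a mean of 1.76 ± 0.38 (SD, n = 3, limma adjusted p = 0.000751). The gene fem-1 was at -0.20, 0.13 and 0.19 and did not pass (limma adjusted p = 0.827). The sources used here do not say whether either allele changes the amount of its RNA. In RNA of this kind, fewer cells of a type and less RNA per cell cannot be told apart.

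Most clec genes lay close to 0, with a long tail on the fem-3(gf) side and a handful of genes above 0. The median of the 200 genes was -0.19 on the log2 scale, against -0.10 over all 19732 features measured on 3 arrays. The lower and upper quartiles were -0.41 and 0.017 in the family, and -0.41 and 0.34 over all features. Within 0.5 of 0 lay 159 genes (79.5%), against 60.2% of all features, and within 1 of 0 lay 178 (89%), against 81.1%. The family's extremes were clec-153 at -5.07 and clec-87 at 3.29. The genes described next were chosen by their place at the ends of this same ranking, so their ratios are given as a description and without a test.

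**Figure D1:**
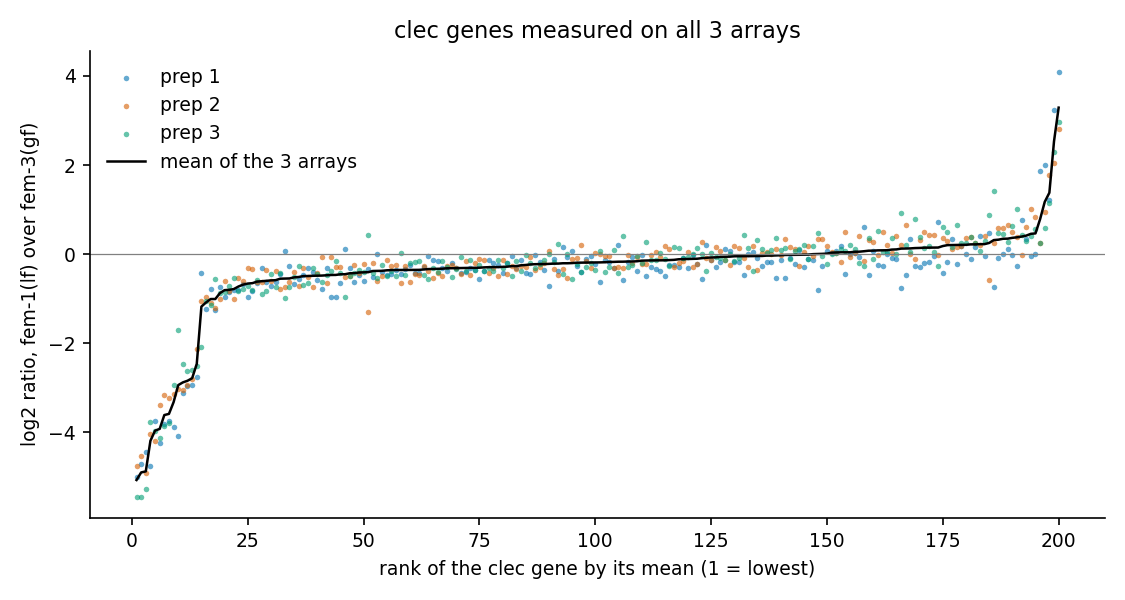
Log2 ratio (fem-1(lf) over fem-3(gf), vertical axis) of the 200 clec genes measured on all 3 arrays, in order of their mean (horizontal axis), with a dot for each array and a line for the mean. The curve drops steeply over the 14 lowest genes, is flat near 0 for most of the family, and climbs over the last few to 3.29.

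The family's low end held 14 genes at least 4-fold higher in fem-3(gf), 7% of the 200, beside 6.56% of all features, and a gap followed. The last gene inside was clec-55 at -2.46 and the first outside was clec-60 at -1.18. After rows of a gene were averaged, all 14 were below 0 on every array, between -5.44 and -1.71. For clec-211 this mean joins a row near -5.93 with one near 0.17, so 1 of its rows is not low. At 4-fold or more on the other side were clec-87 and clec-88, 1% of the 200, beside 1.04% of all features, and the next gene was clec-190 at 1.38.

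The 3 lowest genes were 29.4-fold to 33.6-fold higher in fem-3(gf). On the arrays of preps 1, 2 and 3, clec-153 (F10F2.8, chromosome III) was at -5.01, -4.76 and -5.44, a mean of -5.07 ± 0.35 (SD, n = 3). The values of clec-79 (F47C12.4, chromosome IV) were -4.72, -4.54 and -5.44, a mean of -4.90 ± 0.48. Those of clec-151 (F10F2.7, chromosome III) were -4.44, -4.92 and -5.27, a mean of -4.88 ± 0.41. Their means differed by less than their SDs, so the order among the 3 genes is within their spread.

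A second set of genes lay between 10-fold and 18.2-fold. The ratios of clec-123 (Y25C1A.1, chromosome II) were -4.76, -4.04 and -3.78, with a mean of -4.19 ± 0.51 (SD, n = 3). Those of clec-117 (B0432.12, chromosome II) were -3.74, -4.18 and -3.97, with a mean of -3.96 ± 0.22. The gene clec-155 (T04A8.3, chromosome III), which RefSeq lists as a pseudogene, had -4.24, -3.40 and -4.13. The means of these genes lay within 0.51 of each other, the SD of clec-123. Further along, clec-236 (Y70C5C.5, chromosome V), also listed as a pseudogene, had -3.82, -3.17 and -3.85 after its 2 rows were averaged. The values of clec-119 (F47F6.5, chromosome II) were -3.74, -3.22 and -3.80, and those of clec-142 (K01C8.8, chromosome II) were -3.88, -3.15 and -2.94. No array set these genes apart as a group, since each prep was lowest for at least 1 of the 6.

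The tenth lowest gene, clec-175 (R08C7.6, chromosome IV), was the least repeatable of the family. It had -4.08 on the array of prep 1, -3.02 on that of prep 2 and -1.71 on that of prep 3, so its SD of 1.19 was the largest among the 200 genes. Just outside the 10 lowest stood clec-211 (F19F10.6, chromosome V), a listed pseudogene with a mean of -2.88 that averages 2 unlike rows. The other 3 of the 14 were clec-152 at -2.84 ± 0.20, clec-154 at -2.79 ± 0.17 and clec-55 (F08H9.9, chromosome V) at -2.46 ± 0.32 (SD, n = 3), named after their values were seen. The SDs of the 14 genes ran from 0.17 to 1.19 with a median of 0.37, against a median of 0.21 in the whole family.

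Of the 14 genes, 5 are pseudogenes in the current RefSeq table: clec-155, clec-236, clec-211, clec-152 and clec-154. The family had 16 pseudogenes measured on all 3 arrays, and the other 11 lay within 1 of 0. Of the 184 protein-coding members, 9 were at least 4-fold higher in fem-3(gf), and of all features 6.56%. Among the 5 pseudogenes, clec-152 and clec-154 lie in 1 run, and clec-211 averages a row at -5.93 with one at 0.17. Nothing is read from these counts. The median was -0.20 for pseudogenes and -0.19 for coding members. A spot can also report RNA of a similar gene, and this was not tested.

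On the fem-1(lf) side, clec-87 (C25A1.8, chromosome I) had 4.09, 2.81 and 2.97 on the arrays of preps 1, 2 and 3. The ratios of clec-88 (K10B2.3, chromosome II) were 3.24, 2.06 and 2.30, a mean of 2.53 ± 0.62 (SD, n = 3) or 5.78-fold higher in fem-1(lf). For both genes the array of prep 1 was highest, and each value was above 2. It was also highest for the median of the 18 oocyte and eggshell genes, at 3.23, with 2.29 and 2.23 on the arrays of preps 2 and 3, and the part of that array in these ratios was not tested.

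Below them were genes with smaller or less repeatable ratios. The gene clec-190 (M199.4, chromosome IV) had 1.21, 1.77 and 1.14, a mean of 1.38 ± 0.35 (SD, n = 3). The gene clec-91 (ZK858.3, chromosome I) had 2.00, 0.94 and 0.58, so its mean of 1.17 ± 0.74 owed most to prep 1. The fifth highest, clec-18, was at 1.87, 0.24 and 0.24, and its mean of 0.79 rested on a single spot of prep 1. After it came clec-144 at 0.47, clec-140 at 0.46, clec-66 at 0.42, clec-12 at 0.39 and clec-197 at 0.38, with clec-162 at 0.37 just outside the 10. Of these 5, clec-140, clec-12 and clec-197 had at least 1 array below 0. Beyond the 5 highest genes, then, the fem-1(lf) end of the family merged into the genes around 0.

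**Figure D2:**
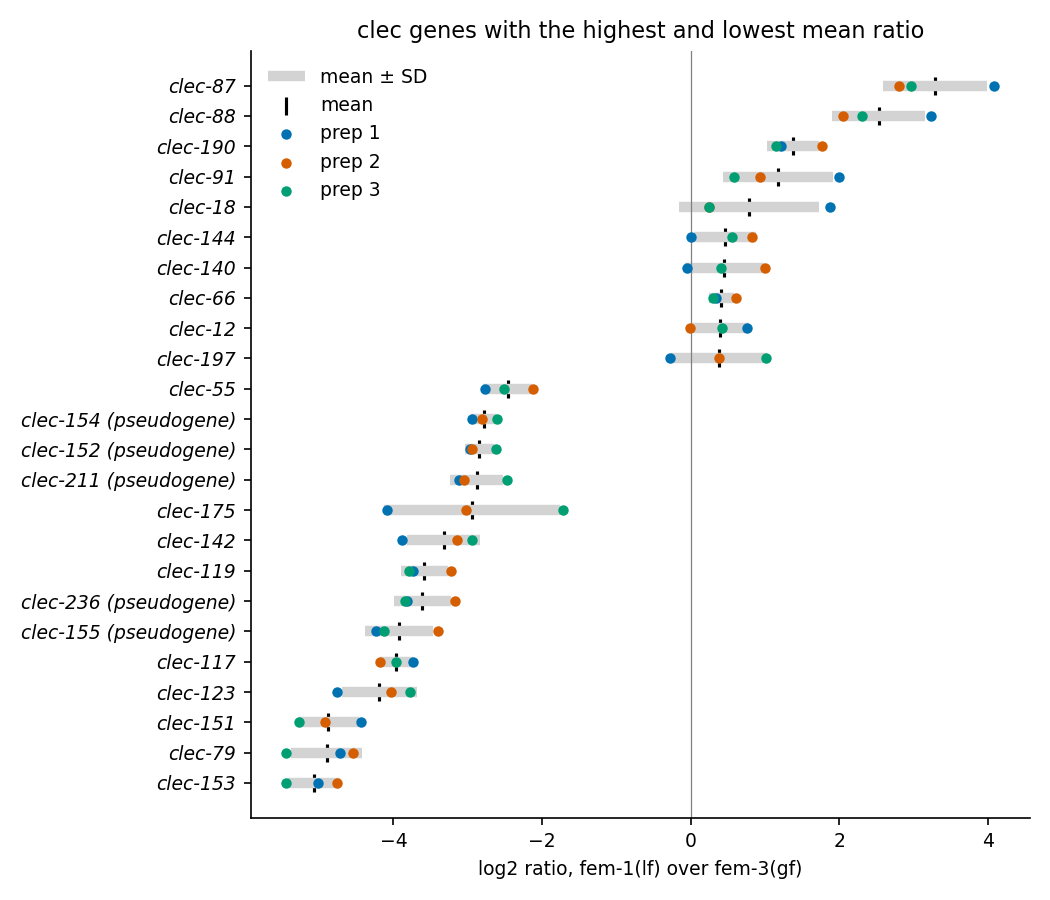
Log2 ratio (fem-1(lf) over fem-3(gf), horizontal axis) of the 10 clec genes with the highest mean and the 14 with the lowest, with a dot for each array, a tick for the mean and a grey bar for the mean ± SD. The 3 arrays lie close together for clec-152 and clec-154, and far apart for clec-175, clec-18 and clec-91.

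Counted by the limma fit over all features (adjusted p under 0.05), the family had 5 members (2.5% of 200) higher in fem-1(lf), where 21% of all features were, and 46 (23%) were higher in fem-3(gf), where 23.7% of all features were. Those higher in fem-1(lf) were clec-87, clec-88, clec-190, clec-91 and clec-66. Of the 46, 18 differed by at least 2-fold and 28 by less. Whether or not they passed, 18 of the 200 clec genes were at least 2-fold higher in fem-3(gf), beside 2038 of all 19732 features. Without prep 1 the count on the fem-1(lf) side was 11, and on the fem-3(gf) side it was 29 without prep 2 and 24 without prep 3. The counts also depended on where 0 was set: with each array centred on muscle, cuticle and neuron genes they were 25 and 18. Since the family was proposed from this contrast, the shares are printed side by side and nothing is read from them.

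Between arrays, the order of the clec genes near 0 repeated less well than that of all features, most of all in pairs with prep 1. Over the 200 genes, Spearman correlations between pairs of arrays were 0.49 for preps 1 and 2, 0.48 for preps 1 and 3 and 0.72 for preps 2 and 3, while over all features they lay between 0.78 and 0.84. The Pearson correlations of the family lay between 0.88 and 0.93. Among clec genes within 1 of 0 on the array left out of a pair, Spearman correlations were 0.32, 0.28 and 0.62. For all features chosen in the same way they lay between 0.64 and 0.70. Pearson correlations were 0.37, 0.28 and 0.60 for these clec genes, against 0.65 to 0.67 for those features. Genes on 1 array share its labelling and scan, and these correlations are a description. A narrower range of values can lower a correlation, and the quartiles were 0.42 apart in the family and 0.75 over all features. The part of this range in the correlations was not tested. The median SD between arrays was 0.21 in the family and 0.22 over all features, so single genes repeated about equally well. Of the 200 genes, 97 were below 0 on all 3 arrays (48.5%, against 41.4% of all features), 18 were above 0 on all 3 (9%, against 29.5%) and 85 were below 0 on 1 or 2 arrays.

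The clec median lay below that of all features on each array. The clec median was -0.28, -0.20 and -0.16 on the arrays of preps 1, 2 and 3, and the median of all features was -0.15, -0.068 and -0.071. The family's median minus that of all features was thus -0.13, -0.13 and -0.090. Spot brightness was not analysed here, so a ratio near 0 does not say whether RNA of the gene was present.

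Genes that studies of infection have followed had a median close to that of all features, with members on both sides of 0. Of 17 such genes listed, 13 were measured, and clec-4, clec-70, clec-71 and clec-85 were not analysed here. By the limma fit 1 of the 13 was higher in fem-1(lf), 4 were higher in fem-3(gf) and 8 did not pass, where 21% of all features were higher in fem-1(lf) and 23.7% higher in fem-3(gf). Their median was -0.083, beside -0.10 over all features. The genes clec-60 and clec-61, both on chromosome II and followed by studies in infection by Gram-positive bacteria, were the lowest. The ratios of clec-60 (ZK666.6) were -0.42, -1.04 and -2.08 on the arrays of preps 1, 2 and 3, so its 3 arrays disagreed widely. Those of clec-61 (ZK666.7) were -0.74, -1.01 and -0.88, a mean of -0.88 ± 0.14 (SD, n = 3). The gene clec-49 was at -0.66, -0.40 and -0.50, and clec-7 at -0.63, -0.24 and -0.41. On the other side clec-66 was at 0.34, 0.61 and 0.30. The remaining 8 had means between -0.23 for clec-86 and 0.22 for clec-65, and included clec-17 at 0.14, clec-39 at 0.036, clec-41 at -0.20, clec-42 at -0.011, clec-52 at 0.077 and clec-67 at -0.083. None of the 13 was among the 14 lowest genes or the 5 highest.

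Of the 203 genes, 15 had 2 rows, and how closely the rows matched varied from gene to gene. They were widest apart for clec-211. Its rows had -6.27, -5.80 and -5.72 on one hand, and 0.033, -0.32 and 0.79 on the other, so their means of -5.93 and 0.17 differed by 6.09. The mean of -2.88 for clec-211 is therefore a value that neither row shows, and its lower row alone would be the lowest of the family. By contrast the rows of clec-236, another listed pseudogene, had means of -3.62 and -3.61. The rows of 4 further genes differed by more than 1. For clec-18 they had means of 1.44 and 0.13, the first with a single spot at 3.91 and the other arrays at 0.14 and 0.26. For clec-246 the means were 0.80 and -0.35, with every array of the first above 0 and every array of the second below. For clec-241 they were 0.18 and -0.89, and for clec-45 they were 0.66 and -0.39, the first with a spot at 1.96 on the array of prep 3. The row means of the other 9 such genes differed by 0.024 for clec-125 up to 0.44 for clec-68 and 0.46 for clec-118, beside a median SD between arrays of 0.21 in the family.

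**Figure D3:**
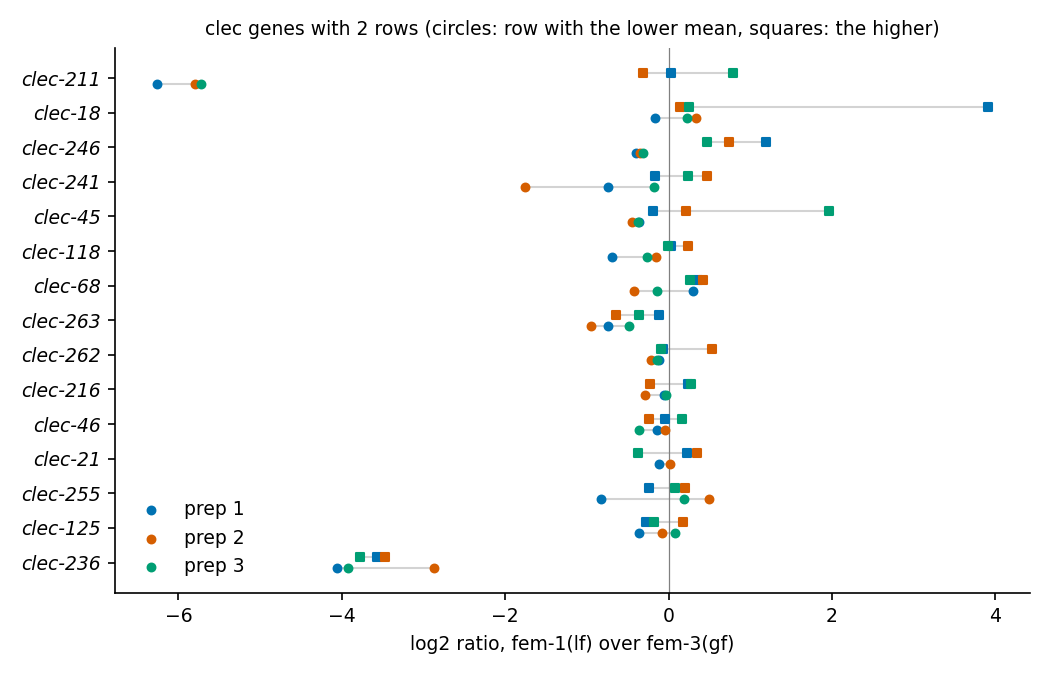
Log2 ratio (fem-1(lf) over fem-3(gf), horizontal axis) of each row of the 15 clec genes with 2 rows, with a dot for each array, circles for the row with the lower mean and squares for the other. The rows of clec-211 lie 6.09 apart, and those of clec-236 overlap near -3.6.

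Another 3 genes lacked a value on the array of prep 3: clec-183 was at -0.66 and -0.43 on the others, clec-138 at -0.25 and -0.060, and clec-120 at 0.048 and 0.39. A further 2 rows are shared by several genes and were counted for none of them. The row of clec-13 and clec-15 had a mean of -0.24, and that of clec-244 and T27C5.12 a mean of 0.26.

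Many clec genes sit in runs along the autosomes, and the genes at the low end came partly from 1 run and partly from single genes. All 4 genes of the run clec-151 to clec-154 on chromosome III, which follow each other with no other protein-coding gene between, were among the 14. Their levels alternated along the run: clec-151 and clec-153, both coding, were at -4.88 and -5.07, and the pseudogenes clec-152 and clec-154 were at -2.84 and -2.79. On all 3 arrays both coding genes were below both pseudogenes. The fifth gene of chromosome III in the set, clec-155, lies outside this run.

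In 2 other runs the last gene alone was past 4-fold. In the run of clec-57, clec-227, clec-56, clec-54 and clec-55 on chromosome V, the means in gene order were 0.085, -0.14, -0.37, -0.60 and -2.46, and clec-55 at the end was lowest on each array. In that of clec-121, clec-122 and clec-123 on chromosome II they were -0.18, -0.25 and -4.19. The run clec-67 to clec-79 on chromosome IV has 13 clec genes in RefSeq, but only its first genes clec-67 and clec-68, at -0.083 and 0.13, and its last, clec-79, at -4.90, were measured on all 3 arrays, so the levels between them are not known here. Of 17 runs with at least 3 measured genes, 4 held a gene at least 4-fold higher in fem-3(gf), and these 17 runs held 77 of the 200 genes.

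In the remaining 13 runs the lowest mean was -1.18, that of clec-60. The 8 genes clec-127 to clec-134 on chromosome II ranged from -0.48 to 0.14, and the 7 genes clec-93 to clec-99 on chromosome I from -0.80 to 0.078. The large run from clec-40 to clec-33 on chromosome V had 8 measured genes of 15, between -0.20 and 0.22. In the run clec-62 to clec-66 on chromosome II, the means in gene order were -0.49, -0.73, -0.048, 0.22 and 0.42, so genes of 1 run stood on both sides of 0.

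**Figure D4:**
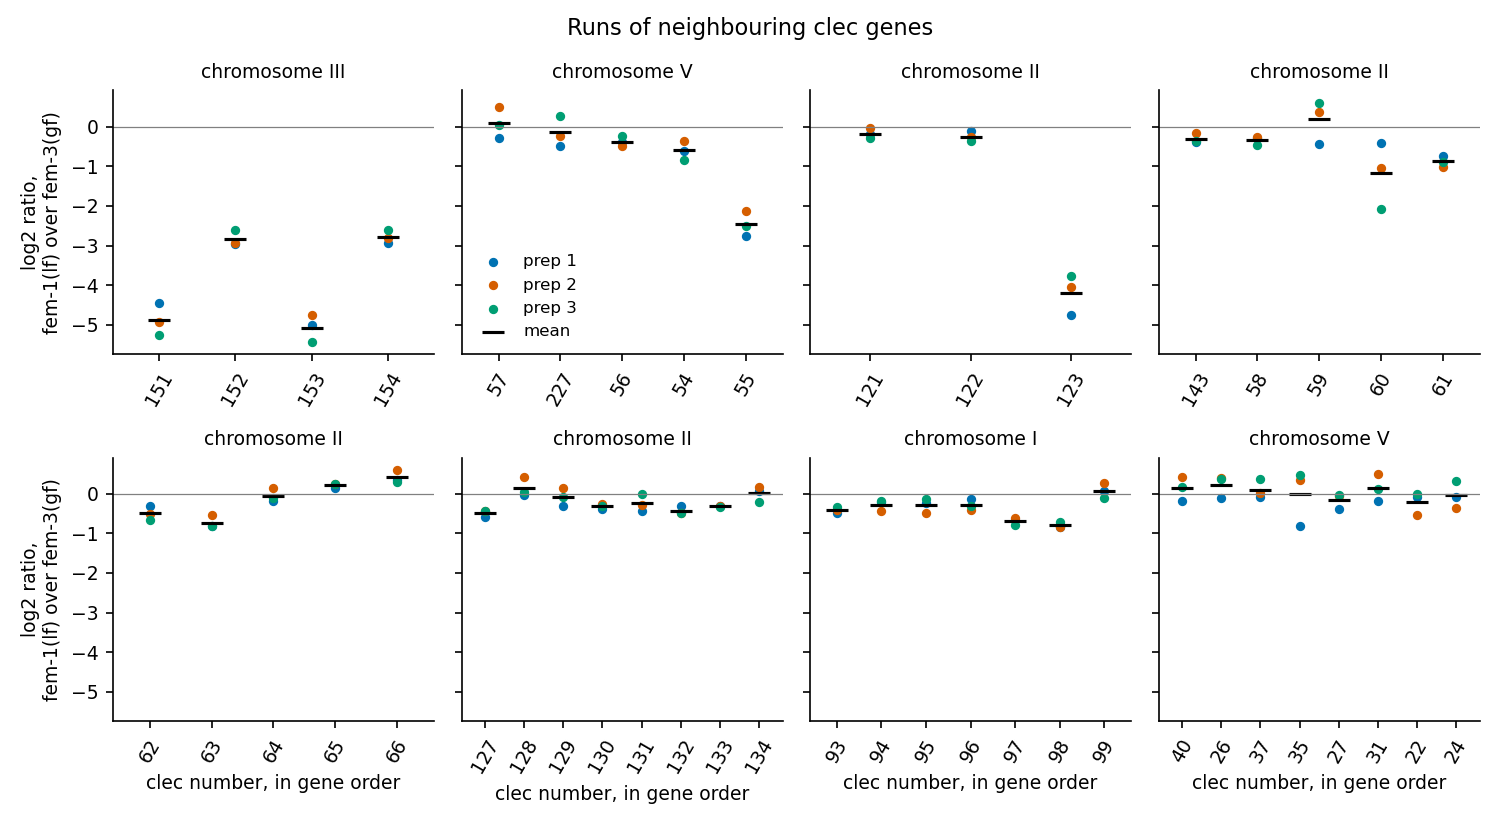
Log2 ratio (fem-1(lf) over fem-3(gf), vertical axis) of measured clec genes in 8 of the 17 runs, in gene order along the chromosome (horizontal axis), with a dot for each array and a bar for the mean. The means of all 4 genes of the run on chromosome III lie below -2, as do those of clec-55 and clec-123 in their runs, and no mean in the other 5 plotted runs is below -1.18. The run clec-67 to clec-79 is not drawn.

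By chromosome, the 14 low genes were 4 of 46 measured on chromosome II, 5 of 15 on chromosome III, 2 of 34 on chromosome IV and 3 of 74 on chromosome V. The 5 on chromosome III include all 4 genes of the run clec-151 to clec-154. No share over all features of each chromosome was computed, so nothing is read from these counts. Chromosome I had 29 members and none of the 14, but held clec-87. Only 2 measured members, clec-86 and clec-265, were on the X chromosome, at -0.23 and -0.11.

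Medians below that of all features were also found in other families of sugar-binding and defence proteins, and in the lists of 5 somatic tissues. The counts that follow stand beside 23.7% of all features higher in fem-3(gf) and 21% higher in fem-1(lf). Of 11 galectin genes, whose products bind galactose-type sugars, 5 were higher in fem-3(gf) and 6 did not pass, with a median of -0.45. The lowest was lec-5 at -1.67 ± 0.30 (SD, n = 3). The lowest gene of a list was picked by its value, so it is given without a test. Of 16 lysozyme genes, 6 were higher in fem-3(gf) and 10 did not pass, with a median of -0.45. The lowest of them was lys-7, a gut lysozyme of the antibacterial response, at -1.31 ± 0.42. Of 14 saposin-like genes, 5 were higher in fem-3(gf), 1 in fem-1(lf) and 8 did not pass, with a median of -0.24. Their lowest member, spp-10, was at -2.16 ± 0.21 and the only one past 4-fold. Of 14 antimicrobial peptide genes, 4 were higher in fem-3(gf), 1 in fem-1(lf) and 9 did not pass, with a median of -0.34. Intestinal marker genes had a median of -0.44 over 17 genes, 9 of them higher in fem-3(gf) and 2 higher in fem-1(lf). Their means ran widely, from -2.74 for asp-1 to 2.07 for cpr-5. Of 15 body wall muscle genes 8 were higher in fem-3(gf) and 1 in fem-1(lf), with a median of -0.42, and of 15 neuronal genes 9 and 2, with a median of -0.43. Of 10 somatic gonad genes 5 were higher in fem-3(gf) and 1 in fem-1(lf), with a median of -0.44. Of 15 cuticle genes 2 were higher in fem-3(gf) and 13 did not pass, with a median of -0.29. A low median was thus shared by defence, gut and other somatic lists. The part of gut content in the ratios of gut-expressed clec genes was not tested.

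**Figure D5:**
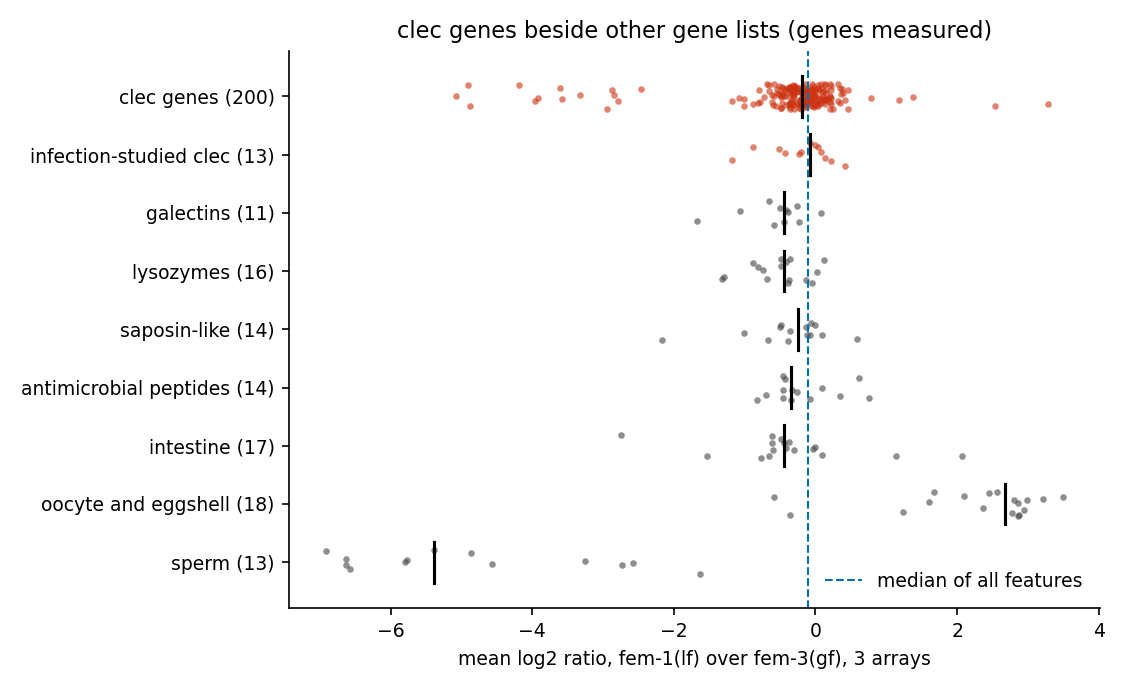
Mean log2 ratio (fem-1(lf) over fem-3(gf), 3 arrays, horizontal axis) of each measured gene in the clec family and in 8 lists, with a bar for each list's median and a dashed line for the median of all features at -0.10. The clec genes reach from -5.07 to 3.29, while the galectins, lysozymes, saposin-like and antimicrobial peptide genes lie between -2.16 and 0.76.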

How the data were processed

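The authors deposited log2 ratios of the 2 channels of each array, as the values show: raised as powers of 2, all but 4 of 64209 give whole thousandths (tolerance 0.01). The sources used here give no background correction, centring or dye. Row names came from the platform's annotation, updated by RefSeq (WBcel235): of 21611 rows, 16450 had 1 gene, of which 16360 matched by gene ID, 5 by accession and 85 not. Where a gene had several rows their mean was taken on each array. The 19732 features measured on all 3 arrays were fitted in limma 3.58.1 under R 4.3.3 (intercept against 0, eBayes, two-sided, Benjamini-Hochberg over all features), after a test on simulated data. Nothing was centred further. The number of arrays limits the precision.

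The family and all lists were chosen with earlier results of these data known. The genes named are the 10 highest and 10 lowest means, genes whose rows differ by over 1, the list followed in infection studies, genes missing on an array, and check genes; others were chosen after their values were seen. Runs are clec genes with at most 2 other protein-coding genes between neighbours. Alternatives changed centring, scaling, missing values, arrays, the variance model, rows, the threshold and the fold minimum. Figures were drawn with matplotlib 3.10.9.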

Additional observations from a re-analysis of the deposited data

How the results depend on the processing

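The number of clec genes called depended on where 0 was set, since most lie close to it. Higher in fem-1(lf) were 5 as deposited, 7 with arrays centred on their medians, 9 with arrays also scaled to equal spread, 25 after centring on muscle, cuticle and neuron genes, 3 at an adjusted p under 0.01 and 3 with limma treat against 1.5-fold. Higher in fem-3(gf) were 46, 34, 37, 18, 24 and 15 under the same settings. Leaving out 1 array gave 4 to 11 (11 without prep 1) and 24 to 43 (29 without prep 2, 24 without prep 3). The family median of -0.19 became -0.092 with median centring, -0.088 with scaling and 0.17 after centring on muscle, cuticle and neuron genes, where the median of all features was 0.25. Of 288 values of named genes under the alternatives, 265 moved by less than the SD between arrays and 23 by more. Among them 0 called genes changed sign. Many of the 265 could not have moved further, since leaving out 1 of 3 arrays always shifts a mean by less than its SD. Allowing missing values left these means unchanged, as did taking rows singly for genes with 1 row. The 265 is therefore no measure of how stable the means are. The fit is already a paired one, since each array's ratio pairs 1 prep of either genotype. No further block could be added.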

Other observations

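Genes next to the 14 low clec genes lay within 1 of 0 about as often as all features. Of 16 measured neighbours of other families, 13 did, where 81.1% of all features did. The median of the 16 was -0.14, beside -0.10 over all features. At least 4-fold higher in fem-3(gf) were 2 of the 16, beside 6.56% of all features. The exceptions on the fem-3(gf) side were R02D5.7, next to clec-55, at -3.80, -3.99 and -3.90 on the arrays of preps 1, 2 and 3, and B0432.11, next to clec-117, at -2.84, -2.42 and -2.39. On the other side nst-1, next to clec-142, was at 1.01. The gene B0218.7, next to clec-51, was at -5.94 ± 0.70 (SD, n = 3), while clec-51 itself was at -1.08 ± 0.14. Around clec-87, both measured neighbours were also above 0, with iars-2 at 1.35 and rsa-1 at 0.90. The 1 measured neighbour of clec-88, ctsa-4.1, was at 0.084, with 0.22, -0.045 and 0.073 on the arrays of preps 1, 2 and 3.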
